A study of Homo sapiens with 18 samples.

Results

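Kinesins are motor proteins that use ATP to walk along microtubules or to take them apart. Some members of the family build the mitotic spindle, move chromosomes and complete cytokinesis, while others carry vesicles, mitochondria and signalling complexes through the interphase cell or work in the primary cilium. The data come from PANC-1, an established cell line from a human pancreatic ductal carcinoma, in which NAT10, the enzyme that writes N4-acetylcytidine (ac4C) on RNA, was knocked down. The family was taken as every protein-coding gene whose symbol is KIF with a number and at most 1 letter, together with KIFC1, KIFC2 and KIFC3, which gave 42 genes among the 58302 genes of the expression table. Kinesins under other symbols, such as CENPE, were left out by this rule.

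Both groups were PANC-1 cells carrying a lentiviral shRNA vector, stably, and without any other treatment. The shCtrl group (sh-Ctrl in the labels) carried a control vector, which the labels call empty and the methods list as a non-targeting hairpin, and the shNAT10 group (sh-NAT10) carried a hairpin against NAT10. RNA-seq was made from 3 libraries per group, and acRIP-seq, an immunoprecipitation of RNA fragments with an antibody against ac4C, from 3 IP and 3 input libraries per group. The sources do not say which NAT10 hairpin was used, so effects of that hairpin on other transcripts and effects of NAT10 loss cannot be told apart. Nothing in the labels says that the replicates were separate cultures, so the p-values measure the spread between these libraries, which may be technical.

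NAT10 itself stood at 31.6, 27.7 and 28.6 FPKM in the shCtrl libraries and at 7.92, 8.43 and 7.90 FPKM in the shNAT10 libraries, a log2 fold change of -1.84 ± 0.08 (SE, n = 3 per group, adjusted p = 3.85e-05 by limma). FPKM scales the fragments of a gene by its length and by the depth of the library, and the values rest on 15831720 to 23521762 reads per library. shCtrl replicate 2 stood apart from the other shCtrl libraries. The chi-square per gene against the other 2 was 40.8 and 24.2, compared with 6.12 between shCtrl replicates 1 and 3 and 2.09 to 3.13 between shNAT10 libraries. Genes with over 5000 exonic bases lay at a median of -0.14 on the log2 scale in that library relative to the others of its group, shorter genes at 0.18, and the kinesins at -0.20. The called kinesins that moved most without it are also given without it. The epithelial keratins that mark the line were present, with KRT8 at 1739 FPKM in shCtrl and 766 FPKM in shNAT10, and 4 of 5 epithelial and PANC-1 markers were lower in shNAT10. Leukocyte markers summed to at most 0.137 FPKM in any library. Of 6 fibroblast markers, COL1A1 and COL3A1 passed the filter while DCN and LUM lay at or near 0, and of 4 neuronal markers SYT1 and SNAP25 passed and were higher in shNAT10, while NEFL was at 0. The summed level of the fibroblast list was 29.6 to 34.7 FPKM in shCtrl and 19.3 to 22.9 FPKM in shNAT10, and that of the neuronal list 11.2 to 13.6 FPKM and 17.5 to 18.7 FPKM, and their part in the kinesin results was not tested. In such bulk RNA, a smaller share of cells in a state and less RNA per cell cannot be told apart.

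Of the 42 kinesins, 30 reached 1 FPKM in 3 or more libraries and were tested among 12982 genes. Calls were made where the adjusted p was below 0.05. By that rule 15 kinesins were higher in shNAT10 and 3 were lower, while 12 did not pass. The 15 include KIF9, which passed the filter only through its shNAT10 libraries and so had to lie higher there, and without it 14 of 29 were higher (48.3%). Over all genes tested, 20.8% were called higher and 21.2% lower. On the TPM scale, which moved the median of all genes to 0.10, these shares were 25.8% and 16%, and again 15 kinesins were higher and 3 lower. KIF1C alone was past a 2-fold change in this fit, although KIF20B (1.09) and KIF1A (1.01) were past it on the TPM scale and KIF2A (-1.05) without shCtrl replicate 2. That is a size that 2.91% of all genes reached in the higher direction and 3.57% in the lower. The 3 libraries of each group did not overlap for 17 kinesins that lay higher in shNAT10 and 5 that lay lower, beside 27.9% and 28.6% of all genes. The 17 include KIF9, whose groups could not overlap given how it passed the filter. The median log2 fold change was 0.34 for the kinesins, KIF9 included, and -0.01 for all genes tested. Of the 18 calls, 11 held under each of the alternatives in which the gene could be tested and 7 were lost under at least 1 of them.

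**Figure D1:**
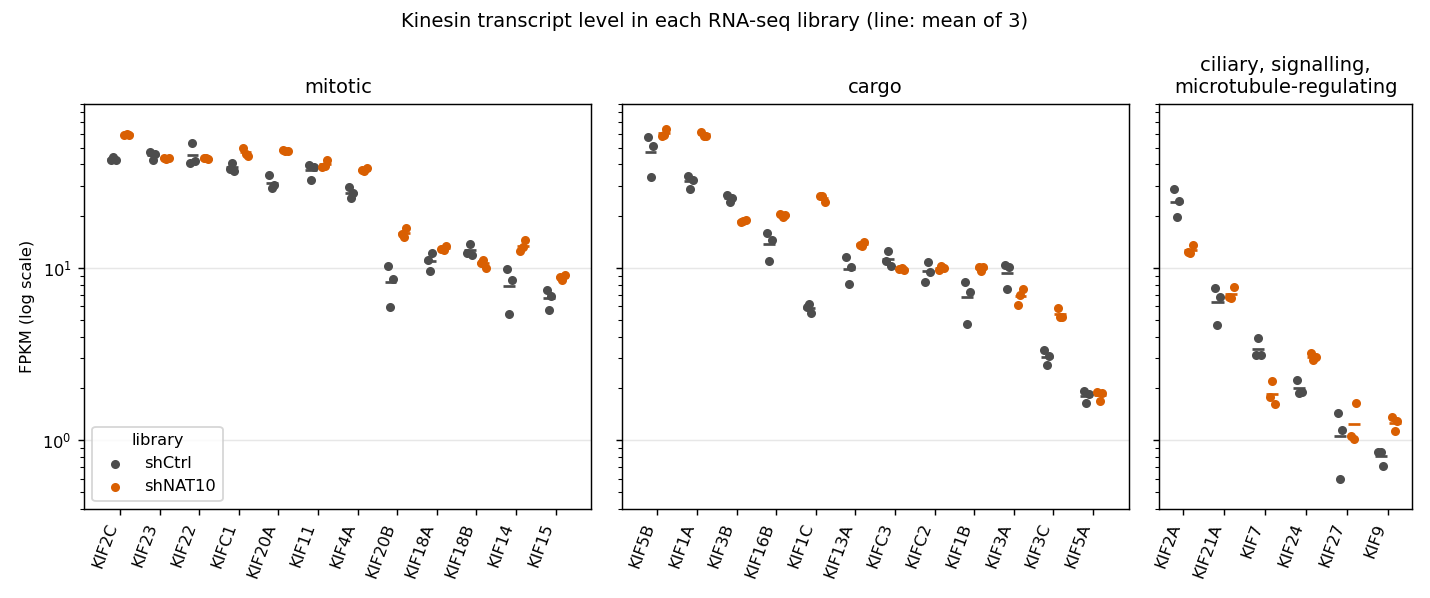
FPKM of the 30 kinesins above the filter in each RNA-seq library, on a log axis, by class and ordered by mean level within a class; points are libraries (grey shCtrl, orange shNAT10) and lines the means of 3 libraries. KIF1C lies at 5.45 to 6.16 FPKM in shCtrl and at 24.3 to 26.3 FPKM in shNAT10, and 1 shCtrl library lies below the others for KIF5B, KIF20B, KIF14 and KIF1B.

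Among the mitotic kinesins, 12 of 14 were tested, 7 rose, 0 fell and 5 did not pass, with a median log2 fold change of 0.35. The count of 0 depends on the placing of KIF2A, which also acts at spindle poles and fell, in the ciliary and microtubule-regulating class. The mitotic motors that rose included those that work at the central spindle and midbody. KIF20B (ENSG00000138182, GRCh38 chromosome 10, 89701610 to 89774939, plus strand), a motor needed for cytokinesis, stood at 10.2, 5.95 and 8.69 FPKM in shCtrl and at 15.8, 15.1 and 17.2 FPKM in shNAT10. All shNAT10 libraries lay above all shCtrl libraries. The log2 fold change was 0.98 ± 0.19 (SE, adjusted p = 0.00607 by limma), and 0.76 without shCtrl replicate 2.

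KIF14, which acts with citron kinase at the midbody, stood at 9.81, 5.38 and 8.51 FPKM in shCtrl and at 12.6, 13.2 and 14.5 FPKM in shNAT10. The groups did not overlap, and shCtrl replicate 2 was again the lowest. Its log2 fold change was 0.80 ± 0.21 (SE, adjusted p = 0.0201 by limma). Leaving out any shNAT10 library ended the call, with adjusted p between 0.054 and 0.072, and leaving out shCtrl replicate 2 gave a log2 fold change of 0.55. The call was also lost with no filter on expression (adjusted p = 0.0521 by limma).

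KIF20A, also called MKLP2, which brings the chromosomal passenger complex to the central spindle, stood at 34.5, 29.1 and 30.1 FPKM in shCtrl and at 48.6, 47.9 and 47.9 FPKM in shNAT10. It was 1.54-fold higher in shNAT10, with a log2 fold change of 0.63 ± 0.08 (SE, adjusted p = 0.00116 by limma). KIF4A, a chromokinesin that limits the length of midzone microtubules with PRC1, stood at 29.6, 25.5 and 27.1 FPKM in shCtrl and at 37.2, 36.4 and 37.9 FPKM in shNAT10. Its log2 fold change was 0.44 ± 0.07 (SE, adjusted p = 0.00371 by limma). For both genes the groups did not overlap. KIF4B is a near-identical retrocopy of KIF4A and was listed at 0.0226 to 0.220 FPKM. How reads that match both genes were counted is not known here.

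KIF2C, also called MCAK, a microtubule depolymerase that corrects wrong attachments at kinetochores, was among the 5 kinesins with the highest mean FPKM. It stood at 42.4, 44.1 and 42.4 FPKM in shCtrl and at 59.5, 60.3 and 59.0 FPKM in shNAT10. The spread within each group was small against the difference, a log2 fold change of 0.47 ± 0.06 (SE, adjusted p = 0.000981 by limma). KIF15, which acts beside KIF11 in keeping the spindle bipolar, stood at 7.42, 5.71 and 6.85 FPKM in shCtrl and at 8.84, 8.5 and 9.15 FPKM in shNAT10, a log2 fold change of 0.41 ± 0.11 (SE, adjusted p = 0.0206 by limma). KIFC1, the minus-end-directed motor also called HSET that clusters centrosomes, stood at 37.6, 40.8 and 36.7 FPKM in shCtrl and at 49.98, 45.9 and 44.7 FPKM in shNAT10. Its groups did not overlap, and its log2 fold change of 0.29 ± 0.07 (SE, adjusted p = 0.0197 by limma) was the smallest among the 15 kinesins that rose. Without shCtrl replicate 2, its lowest library of that group, KIF15 was at 0.30 (adjusted p = 0.00912 by limma). KIF15 lost its call without shCtrl replicate 3 or without any shNAT10 library (adjusted p 0.0529 to 0.0772), and KIFC1 without shCtrl replicate 3 or shNAT10 replicate 1 or 2 (0.063 to 0.0831).

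The 5 mitotic kinesins that did not pass included KIF23 and KIF22, which were among the 5 kinesins with the highest mean FPKM. KIF23, or MKLP1, the kinesin of the centralspindlin complex, stood at 47.0, 42.6 and 46.0 FPKM in shCtrl and at 43.2, 43.2 and 43.8 FPKM in shNAT10, a log2 fold change of -0.06 (95% interval -0.21 to 0.09). KIF22, a chromokinesin that pushes chromosome arms, stood at 40.6, 52.9 and 42.0 FPKM in shCtrl and at 43.4, 43.5 and 42.7 FPKM in shNAT10, a log2 fold change of -0.05 (95% interval -0.30 to 0.20). The direction of both was not stable. KIF22 turned to 0.07 without shCtrl replicate 2, its highest library, and both turned to 0.05 on the TPM scale. KIF11, or Eg5, the motor that separates the spindle poles, was at a mean of 36.9 FPKM in shCtrl and 40.0 FPKM in shNAT10 (95% interval of the log2 fold change -0.10 to 0.34). KIF18A, which dampens chromosome movement at the metaphase plate, was at 10.97 and 13.0 FPKM (log2 fold change 0.25, adjusted p = 0.0793 by limma), and at 0.16 without shCtrl replicate 2. Its paralog KIF18B was at 12.7 and 10.6 FPKM (log2 fold change -0.25, adjusted p = 0.0516 by limma). KIF18A lay higher and KIF18B lower without overlap between the groups, although neither passed the test.

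The promoters of the mitotic kinesins shared sequence features that the choice of members did not use. A promoter window from RefSeq (GRCh38.p14) runs from 250 bases before a gene's start to 50 bases after it, and 34 of the 42 kinesins had at least 1 such window. TTTGAA, the core of the cell cycle genes homology region, was searched on both strands. It was found in 10 of the 14 mitotic kinesins (71.4%), in 1 of 11 cargo kinesins (9.1%), in 0 of 9 others, and in 18.2% of all 27305 genes with a window. CCAAT, the box bound by NF-Y, was found on either strand in 11 of the 14 mitotic kinesins (78.6%), in 4 of 11 cargo kinesins (36.4%) and in 39.7% of all genes. Both motifs were held by 64.3% of the mitotic kinesins and 7.3% of all genes. The mitotic counts hold KIF4A and its near-identical retrocopy KIF4B as separate genes, although their sequence around TTTGAA is nearly the same. The letters are a description of these windows and not evidence of binding. Of the 7 mitotic kinesins that rose, 5 held TTTGAA, and of the 5 that did not pass, KIF11, KIF18A, KIF18B and KIF23 held it too, so the motif was found among mitotic kinesins of both kinds. The lines show 30 bases around it on the gene's own strand, 5′ to 3′, for the 5 that rose and for KIF5B, the only cargo kinesin with the motif, with TTTGAA, or TTCAAA where it lies on the opposite strand, in capitals.
KIF20B (chr10:89701602-89701631, plus strand): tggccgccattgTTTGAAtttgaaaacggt
KIF14 (chr1:200620733-200620762, minus strand): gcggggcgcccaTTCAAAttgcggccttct
KIF4A (chrX:70290058-70290087, plus strand): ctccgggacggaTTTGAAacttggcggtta
KIF15 (chr3:44761747-44761776, plus strand): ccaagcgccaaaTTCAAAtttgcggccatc
KIFC1 (chr6:33391815-33391844, plus strand): tggccgttggaaTTCAAAagtggcgggtgt
KIF5B (chr10:32056548-32056577, minus strand): agtgcagtaaaaTTTGAAtctgcgaccccg
In KIF20B a second copy follows directly. Counted from the RefSeq start of each window, which can differ from the GENCODE start, the motif of KIF5B began 140 bases before the start, farther from the start than in the 5 mitotic promoters.

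Among the cargo kinesins, 12 of 15 were tested, 6 rose, 1 fell and 5 did not pass, with a median log2 fold change of 0.44. KIF1C (ENSG00000129250, GRCh38 chromosome 17, 4997948 to 5028401, plus strand), a fast kinesin-3 motor that carries dense core vesicles and integrin-containing vesicles and moves mRNAs along microtubules, had the largest change of the family. It stood at 5.97, 6.16 and 5.45 FPKM in shCtrl and at 26.3, 26.03 and 24.3 FPKM in shNAT10. The groups were far apart against the spread within them, and KIF1C was 4.30-fold higher in shNAT10. The log2 fold change was 2.11 ± 0.08 (SE, n = 3 per group, adjusted p = 3.47e-05 by limma), and it lay between 1.95 and 2.23 over the alternatives tried. An exact permutation test over the 6 libraries, two-sided, gave p = 0.1, the smallest that 3 against 3 libraries allow.

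The kinesin-3 motors KIF1A, KIF1B, KIF16B and KIF13A rose too, by less, while KIF13B lay below the filter, at 0.757 FPKM in shCtrl and 0.754 FPKM in shNAT10. KIF1A, best known as a carrier of synaptic vesicle precursors in neurons, was among the 5 kinesins with the highest mean FPKM. It stood at 34.2, 28.9 and 32.4 FPKM in shCtrl and at 61.9, 58.8 and 58.1 FPKM in shNAT10, a log2 fold change of 0.90 ± 0.08 (SE, adjusted p = 0.000292 by limma). Of the 4 neuronal markers, SYT1 and SNAP25 lay higher in the same libraries, with log2 fold changes of 0.51 and 0.56, while NEFL and RBFOX3 did not pass the filter. The neuronal kinesin KIF5C, also below the filter, had means of 0.342 FPKM in shCtrl and 0.173 FPKM in shNAT10. A relation between these genes and KIF1A was not tested. KIF1B, which carries mitochondria and synaptic vesicle precursors by its splice forms, stood at 8.34, 4.76 and 7.25 FPKM in shCtrl and at 10.2, 9.67 and 10.2 FPKM in shNAT10. Its log2 fold change was 0.59 ± 0.19 (SE, adjusted p = 0.0428 by limma). It dropped to 0.36 without shCtrl replicate 2 (adjusted p = 0.00678 by limma), and the call was lost without shCtrl replicate 3 or any shNAT10 library, with adjusted p from 0.0725 to 0.116. With every library kept, the call of KIF1B was also lost with no filter on expression (adjusted p = 0.1 by limma) and with no mean-variance trend (0.0595).

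KIF16B, which moves early endosomes, stood at 15.9, 10.99 and 14.6 FPKM in shCtrl and at 20.6, 19.9 and 20.2 FPKM in shNAT10, a log2 fold change of 0.56 ± 0.14 (SE, adjusted p = 0.0154 by limma). KIF13A, which carries recycling endosomes, stood at 11.6, 8.03 and 10.1 FPKM in shCtrl and at 13.6, 13.4 and 14.2 FPKM in shNAT10, a log2 fold change of 0.48 ± 0.13 (SE, adjusted p = 0.0248 by limma). All shNAT10 libraries lay above all shCtrl libraries for both. Without shCtrl replicate 2 the log2 fold changes were 0.40 for KIF16B and 0.34 for KIF13A, and both passed (adjusted p = 0.00113 and 0.00787 by limma). Leaving out shNAT10 replicate 1 or 3 ended the call of KIF16B (adjusted p 0.057 and 0.0528), and leaving out shCtrl replicate 3 or any shNAT10 library ended that of KIF13A (0.0628 to 0.0829). KIF13A also lost its call with no filter on expression (adjusted p = 0.0579 by limma).

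The subunits of kinesin-2, a motor of unlike heavy chains and the adaptor KIFAP3 that drives intraflagellar transport and carries late endosomes, did not move together. KIF3C, the alternative partner of KIF3A, stood at 3.33, 2.74 and 3.08 FPKM in shCtrl and at 5.90, 5.20 and 5.21 FPKM in shNAT10, a log2 fold change of 0.81 ± 0.11 (SE, adjusted p = 0.00135 by limma). KIF3B, the usual partner, stood at 26.6, 24.3 and 25.6 FPKM in shCtrl and at 18.4, 18.7 and 19.1 FPKM in shNAT10, a log2 fold change of -0.44 ± 0.07 (SE, adjusted p = 0.00219 by limma). Neither gene overlapped between the groups, and they lay in opposite directions. KIF3A, the shared heavy chain, stood at a mean of 9.36 FPKM in shCtrl and 6.90 FPKM in shNAT10, a log2 fold change of -0.43 that did not pass (adjusted p = 0.0513 by limma). Without shCtrl replicate 2 it was -0.57 (adjusted p = 0.00209 by limma). KIFAP3, which is not a motor, fell from 6.65 to 2.07 FPKM, a log2 fold change of -1.64 ± 0.11 (SE, adjusted p = 0.00012 by limma).

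KIF5B, the ubiquitous kinesin-1 heavy chain, had the highest mean FPKM of the family. It stood at 57.3, 33.6 and 51.2 FPKM in shCtrl and at 58.7, 58.9 and 64.2 FPKM in shNAT10. The groups did not overlap, but shCtrl replicate 2 lay far below the rest, and the log2 fold change of 0.39 ± 0.19 did not pass (SE, adjusted p = 0.134 by limma). It was 0.16 without shCtrl replicate 2 and did not pass either (adjusted p = 0.0799 by limma), while without shCtrl replicate 1 it was 0.55 and passed (adjusted p = 0.0393 by limma). The other kinesin-1 heavy chain above the filter, KIF5A, was at 1.80 FPKM in shCtrl and 1.83 FPKM in shNAT10 (95% interval of the log2 fold change -0.30 to 0.34). The minus-end-directed motors KIFC2 and KIFC3 were at 9.55 and 11.2 FPKM in shCtrl and at 10.02 and 9.88 FPKM in shNAT10, with intervals of the log2 fold change from -0.18 to 0.33 and from -0.39 to 0.03.

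**Figure D2:**
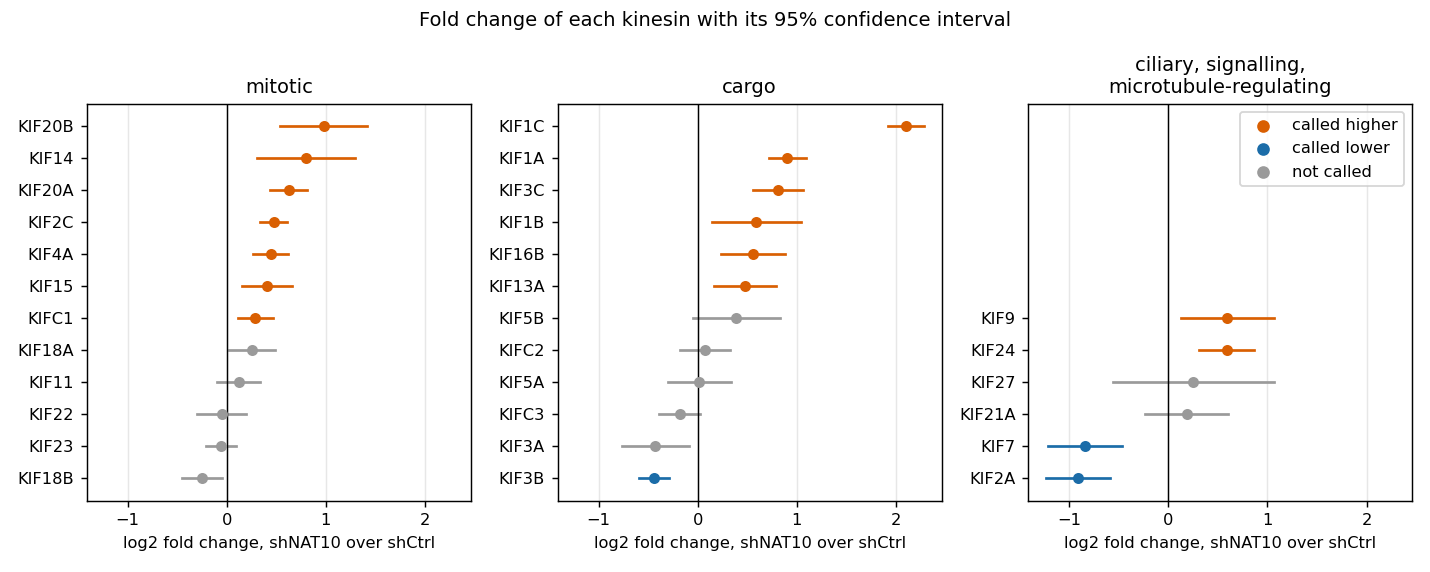
log2 fold change of shNAT10 over shCtrl for the 30 tested kinesins, by class; bars are 95% confidence intervals of the limma fit, orange is called higher, blue called lower and grey not called. KIF1C stands apart at 2.11, and the kinesins called lower are KIF3B, KIF2A and KIF7.

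Of 13 kinesins with roles in cilia, signalling or the control of microtubule ends, 6 were tested, 2 rose, 2 fell and 2 did not pass. The 2 that rose include KIF9, which passed the filter only through its shNAT10 libraries, and 5 were tested without it. KIF2A (ENSG00000068796, GRCh38 chromosome 5, 62306162 to 62537249, plus strand), a microtubule depolymerase at spindle poles and in cilium disassembly, had the largest fall of the family. It stood at 28.8, 19.7 and 24.4 FPKM in shCtrl and at 12.4, 12.2 and 13.7 FPKM in shNAT10, without overlap. The log2 fold change was -0.91 ± 0.14 (SE, adjusted p = 0.00238 by limma), and -1.05 without shCtrl replicate 2. Its paralog KIF2C rose. In GENCODE v29, 8.97% of its exonic bases are shared with IPO11 on the same strand. KIF7, a regulator of Hedgehog signalling at the cilium tip, stood at 3.14, 3.94 and 3.15 FPKM in shCtrl and at 1.78, 2.20 and 1.62 FPKM in shNAT10, a log2 fold change of -0.84 ± 0.16 (SE, adjusted p = 0.00568 by limma).

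KIF24, a centriolar kinesin that holds back cilium formation, stood at 2.24, 1.89 and 1.90 FPKM in shCtrl and at 3.21, 2.94 and 3.04 FPKM in shNAT10, a log2 fold change of 0.59 ± 0.12 (SE, adjusted p = 0.00732 by limma). KIF9, a kinesin of motile cilia, stood at 0.859, 0.854 and 0.709 FPKM in shCtrl and at 1.37, 1.13 and 1.297 FPKM in shNAT10. Its call (log2 fold change 0.59, adjusted p = 0.0479 by limma) was lost when any 1 of the 6 libraries was left out, with adjusted p from 0.0573 to 0.144. Genes on the other strand cover 11.8% to 17.9% of the exonic bases of KIF7, KIFC1, KIF22, KIF27, KIFC2 and KIF9, whose reads cannot be told apart from theirs if strand was not used in the counting. KIF21A, which halts microtubule growth at the cell cortex, was at 6.36 and 7.10 FPKM, and KIF27, a relative of KIF7, at 1.061 and 1.24 FPKM. Neither passed, and both changed direction without shCtrl replicate 2, to log2 fold changes of -0.02 and -0.08.

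The mitotic and cargo classes had much the same description, with 7 and 6 of 12 tested genes higher (58.3% and 50%) and 0 and 1 lower, beside 20.8% and 21.2% of all genes. Without shCtrl replicate 2 the counts were again 7 and 6 higher, with 0 and 2 lower, beside 25.4% and 25.6% of all genes. The median of the mitotic class was 0.35 and that of the cargo class 0.44. The mitotic log2 fold changes ran from -0.25 to 0.98, and the cargo ones from -0.44 to 0.90 apart from KIF1C at 2.11. The summed level of the mitotic class was 308 to 323 FPKM in shCtrl and 377 to 383 FPKM in shNAT10, that of the cargo class 154 to 197 FPKM and 241 to 246 FPKM, and that of the ciliary and signalling class 33.5 to 45.6 FPKM and 27.3 to 30.3 FPKM.

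Lists of partner genes, likewise chosen with earlier results of these data known, place the classes. Of 33 spindle and midzone partners of the mitotic kinesins, 23 were higher (69.7%), 0 lower and 10 not called, with a median log2 fold change of 0.45. The 23 include CENPE, itself a mitotic kinesin left out of the family by the symbol rule, at 0.81 (adjusted p = 0.0111 by limma). The largest rises were those of BIRC5, or survivin, of the chromosomal passenger complex, from 16.5 to 48.1 FPKM (log2 fold change 1.55, adjusted p = 0.000147 by limma), and of HMMR, a spindle assembly factor, from 12.6 to 31.9 FPKM (1.34, adjusted p = 8.38e-05 by limma). PRC1, the midzone partner of KIF4A, had a log2 fold change of 0.72, and INCENP, which travels with KIF20A, of 1.05. PLK1 and CCNB1, at -0.11 and 0.05, did not pass. Of 16 markers of G1/S and replication, 8 were higher (50%) and 2 lower (12.5%), with the rises led by GINS2 and UNG (0.80 and 0.75) and with RRM2 and CCNE2 falling (-1.20 and -1.18). Over all genes tested, 20.8% were higher and 21.2% lower.

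Of 19 tested kinesin light chains and cargo adaptors, 7 were higher (36.8%) and 5 lower (26.3%), with a median of 0.14. The shares over all genes tested were 20.8% and 21.2%. The largest falls were those of HAP1, from 3.81 to 0.931 FPKM (log2 fold change -1.92), and KIFAP3. HAP1, counted among the 5 lower, passed the filter only through its shCtrl libraries and so had to lie lower in shNAT10. The largest rises were those of RAB11FIP5 (0.69) and PLEKHM2 (0.67), which links kinesin-1 to lysosomes. Of 25 tested genes of dynein and dynactin, the motor of the opposite direction, 8 were higher (32%) and 2 lower (8%), with a median of -0.06. BICD2, an adaptor of dynein, rose from 2.18 to 11.9 FPKM (2.41, adjusted p = 5.07e-05 by limma), followed by DYNLL2 (1.04). DYNC1LI2 and DYNC1LI1, the light intermediate chains, fell (-0.68 and -0.23). Of 11 tubulins, 2 were higher (18.2%, TUBA1C 0.47 and TUBB 0.32) and 3 lower (27.3%), led by TUBB2B and TUBB3 (-0.95 and -0.94). Both tubulin shares lay near those of all genes.

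**Figure D3:**
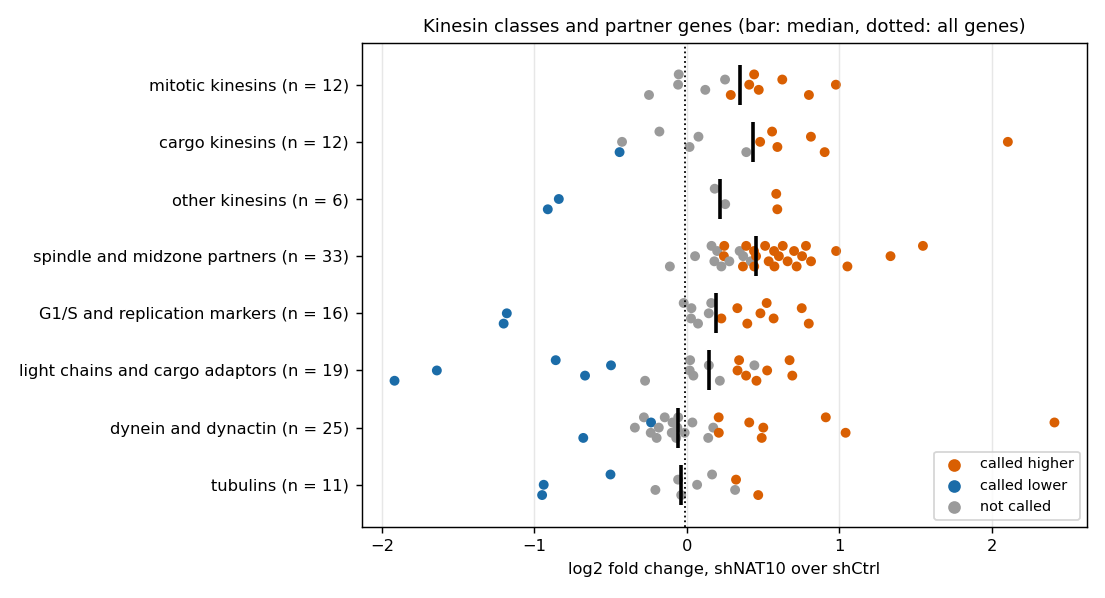
log2 fold change of shNAT10 over shCtrl for each tested gene of the kinesin classes and the partner lists; bars are list medians, the dotted line is the median of all genes tested, orange is called higher, blue called lower and grey not called. The spindle partners hold 23 orange points, among them the kinesin CENPE, and 0 blue points, while the light chains and adaptors spread from -1.92 to 0.69. The -1.92 is HAP1, which passed the filter only through its shCtrl libraries.

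The remaining 12 kinesins lay below the filter, with at most 0.913 FPKM in any library. KIF2B, a testis depolymerase, and KIF19 were at 0 in every library. KIF6 had 2 reads in all. KIF13B, KIF26A, KIF17 and KIF5C, a neuronal kinesin-1, had means of 0.342 to 0.780 FPKM in shCtrl, and KIF4B, KIF12, KIF21B, KIF25 and KIF26B means of 0.0815 to 0.327 FPKM. Without overlap between the groups, KIF26A (0.780 to 0.531 FPKM), KIF17 (0.713 to 0.406 FPKM), KIF5C, KIF12 and KIF21B lay lower in shNAT10 and KIF4B higher. These differences were not tested, and the same count over all genes below the filter was not made.

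The acRIP-seq data hold 1 list of peaks per group, 16892 in shCtrl and 15813 in shNAT10, so replicates cannot be compared and no difference between the lists was tested. A peak is given with its fold enrichment of IP over input. At least 1 peak was listed for 20 kinesins in shCtrl and 21 in shNAT10. For 15 kinesins both lists held a peak, for 5 only that of shCtrl, for 6 only that of shNAT10 and for 16 neither. Of the 30 kinesins above the expression filter, 63.3% had a shCtrl peak and 60.0% a shNAT10 peak, compared with 49.6% and 47.7% of the 12982 genes. Among protein-coding genes above the filter the shares were 55.5% and 53.7%, and among those with over 5000 exonic bases 64.8% and 63.3%. Not all of the 30 kinesins are that long. Of the 15 kinesins that rose, 8 had peaks in both lists, 4 only in shCtrl, 2 only in shNAT10 and 1 in neither. Of the 3 that fell, KIF2A and KIF3B had peaks in both lists and KIF7 in neither.

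Few kinesin peaks lay at the same place in both lists. Of 46 shCtrl peaks on kinesins, 7 (15.2%) had at least 1 base in common with the shNAT10 list. The reverse count was 7 of the 40 shNAT10 peaks (17.5%). Over all genes the shares were 25.5% of shCtrl and 27.2% of shNAT10 peaks. Where a gene had a peak in both lists, 7 of 39 shCtrl and 7 of 32 shNAT10 kinesin peaks overlapped (17.9% and 21.9%), beside 34.2% and 36.0% over all genes. The overlapping peaks were on the cargo kinesins KIF1B, KIF1C, KIF5B and KIFC3. Of the peaks on mitotic kinesins in both lists, 0 of 8 in shCtrl and 0 of 12 in shNAT10 overlapped, and the difference from the share over all genes was not tested. By the midpoint on the longest coding transcript, 27 shCtrl peaks were in the coding sequence, 9 in the 3′ UTR and 3 in the 5′ UTR, while 7 had their midpoint outside that transcript. In shNAT10 the numbers were 32, 4, 0 and 4.

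KIF1C had 5 shCtrl peaks and 2 shNAT10 peaks. The shCtrl peaks had fold enrichments of 976 in the 5′ UTR, 37.8 and 52.1 in the coding sequence, 63.2 at a site off the longest coding transcript and 8.75 in the 3′ UTR. The shNAT10 peaks were at 8.82 in the coding sequence and 20.3 in the 3′ UTR, of which the second overlapped the last shCtrl peak. In the same cells its FPKM was 4.30-fold higher in shNAT10. KIF5B had 5 shCtrl peaks with fold enrichments of 2.73 to 14.0 and 3 shNAT10 peaks of 4.59 to 19.5. KIFC3, whose level did not pass, had the most peaks, 6 in shCtrl and 5 in shNAT10, with fold enrichments up to 434 and 1120.

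**Figure D4:**
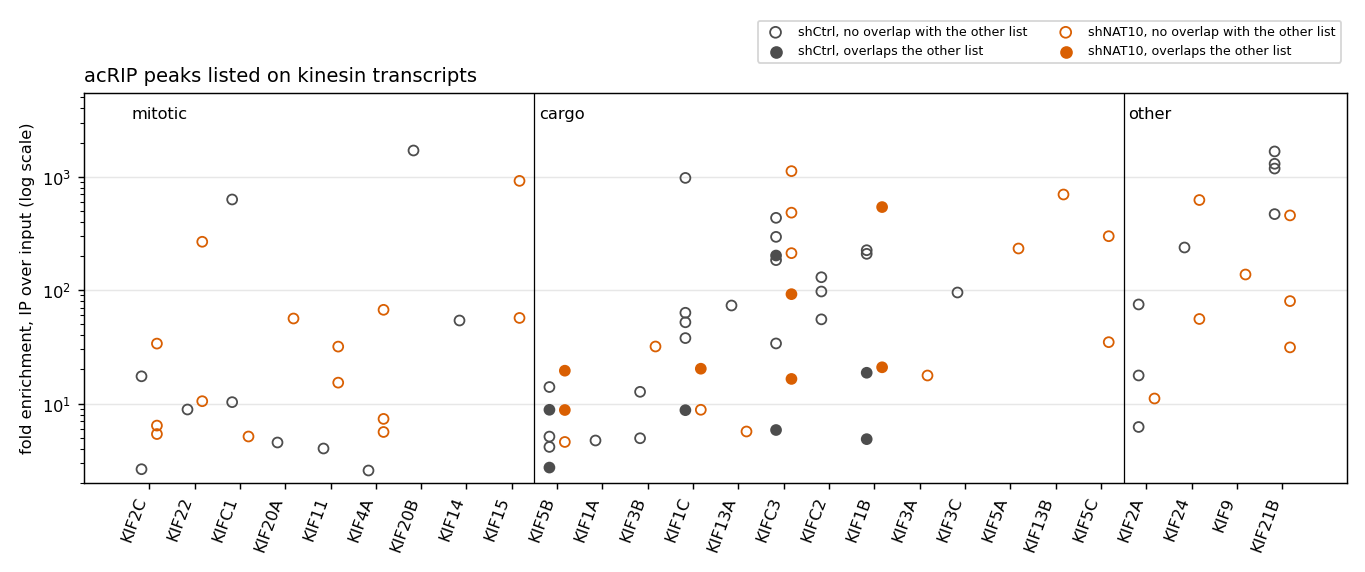
Fold enrichment (IP over input) for every acRIP peak on a kinesin transcript, on a log axis; grey is the shCtrl list, orange the shNAT10 list, and filled points share at least 1 base with a peak of the other list. Filled points occur on KIF5B, KIF1C, KIFC3 and KIF1B only, all of the cargo class.

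Mitotic kinesins had 10 shCtrl peaks with a median fold enrichment of 9.66 and 14 shNAT10 peaks with a median of 23.6. Cargo kinesins had 28 with a median of 45.0 and 19 with a median of 32.4. The shCtrl list as a whole had a median of 49.3 and the shNAT10 list of 45.2. KIF20B held a shCtrl peak of 1730, the highest on any kinesin, and 0 shNAT10 peaks, while KIF15 held 0 shCtrl peaks and shNAT10 peaks of 919 and 56.9. KIF4A, with 1 shCtrl peak of 2.59 and 3 shNAT10 peaks of 5.62 to 67.1, and KIF2C, with peaks of 2.64 and 17.4 in shCtrl and of 5.39 to 33.8 in shNAT10, lay in both lists. High fold enrichments also stood on transcripts that the RNA-seq barely held. KIF21B had a mean of 0.125 FPKM in shCtrl and 4 shCtrl peaks of 468 to 1670, KIF13B 1 shNAT10 peak of 700.0 at 0.754 FPKM, and KIF5C shNAT10 peaks of 299 and 34.8 at 0.173 FPKM. The lists give no read numbers for a peak, so the depth behind these ratios is unknown.

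**Figure D5:**
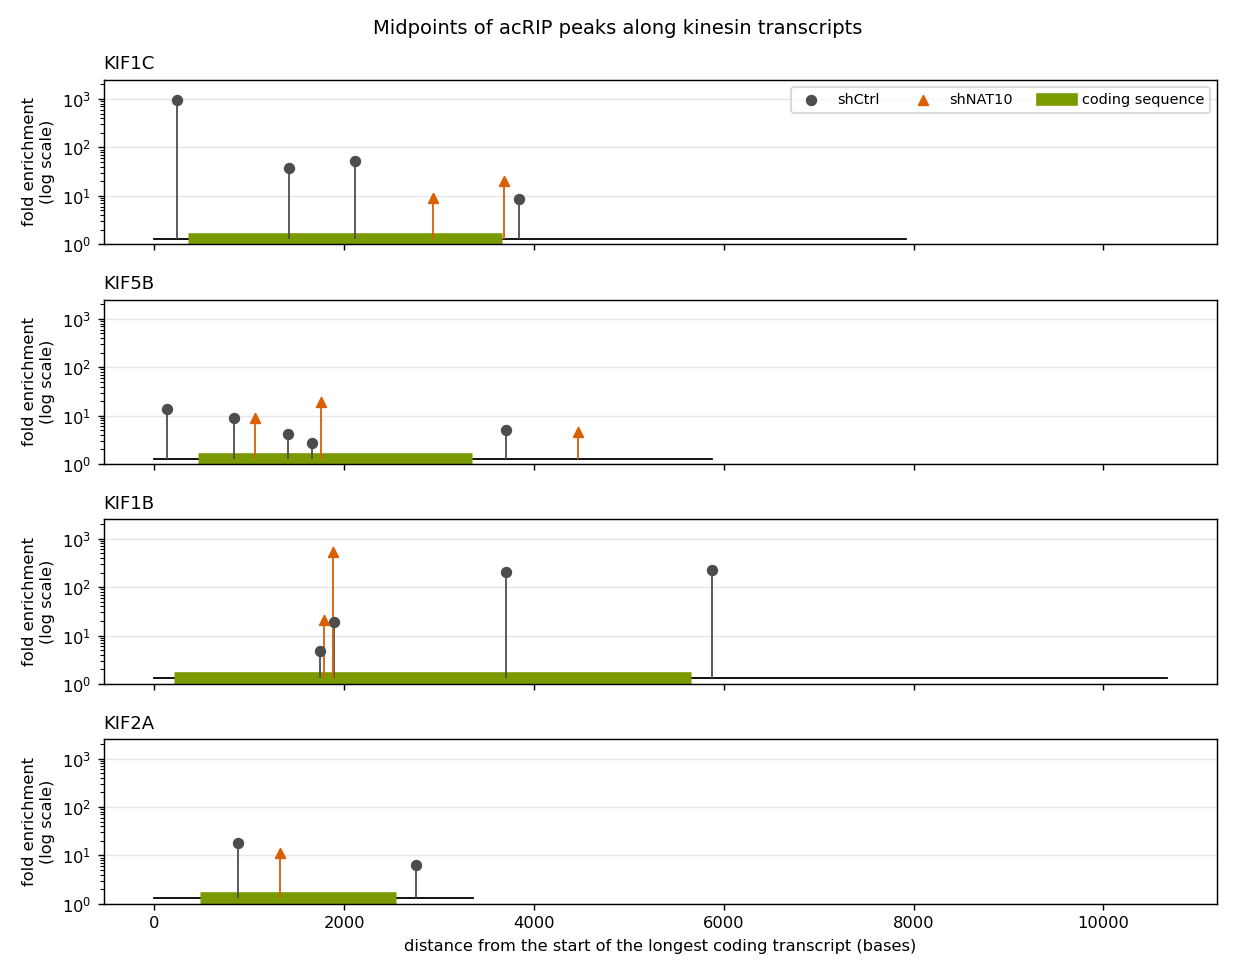
Midpoints of acRIP peaks along the longest coding transcript of KIF1C, KIF5B, KIF1B and KIF2A, in bases from the transcript's start, with fold enrichment of IP over input on a log axis; grey circles are shCtrl peaks, orange triangles shNAT10 peaks and the green bar is the coding sequence. The KIF1C peak of 976 lies before the coding sequence and has no shNAT10 peak near it; peaks whose midpoint is outside the transcript are not drawn.

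ac4C has been placed in stretches of C-N-N repeats, where N is any base. A run of at least 5 C-N-N steps, on the transcript's strand, was found in 10 of the 30 shCtrl peaks on kinesins that could be placed whole on the longest coding transcript (33.3%), beside 28.7% of 10157 listed peaks placed in this way. It was found in 3 of 24 shNAT10 peaks on kinesins (12.5%), beside 27.6% of all. By class the shCtrl runs were in 8 of 18 cargo peaks and in 0 of 6 mitotic peaks, and the shNAT10 runs in 3 of 12 and 0 of 9. The placed shCtrl peaks had a median GC content of 53.8% on cargo and 42.4% on mitotic kinesins, beside 46.9% over all. The part of base composition in these counts was not tested. The lines show 30 bases around the run in a shCtrl peak of 3 cargo kinesins, picked after their values were seen as examples of such runs, from the GENCODE v29 transcripts (GRCh38), 5′ to 3′ on the gene's strand, with the run in capitals.
KIF1C, coding sequence (chr17:5020519-5020548, plus strand): acgttttCCGCTTCAACCACCCggagcagg
KIF1B, coding sequence (chr1:10342125-10342154, plus strand): tatCAGCAGCACCCACTTCATCTGCAAgga
KIFC3, coding sequence (chr16:57762161-57762190, minus strand): ggagtaCACCATCACCGTCAGCGCtgcgga
The KIF1B run of 8 steps lies in the peak with a fold enrichment of 209 and the KIF1C run of 5 steps in that of 52.1. Of these 3 peaks, that of KIFC3 (fold enrichment 5.85) overlapped a shNAT10 peak and the others did not.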

How the data were processed

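RNA-seq (3 libraries per group) and acRIP-seq (3 IP and 3 input libraries per group) of PANC-1 cells were used, grouped by their labels. The submitters' processing notes name HISAT2 2, HTSeq 0.11.0 and DESeq2 1.22.2 with hg38. For RNA-seq, the authors counted reads per Ensembl gene and deposited FPKM values, 1 column per library. For acRIP-seq, the authors deposited 1 peak list per group, in which each peak has a ratio (its fold enrichment, IP to input), a p-value and the logarithm of that. The peak caller is not given in the sources used here. The RNA-seq kit was strand-specific by the methods, and the strand setting of the counting was not stated.

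Genes were placed with GENCODE v29 (GRCh38), which holds 58039 of the 58302 genes. The pseudogene KIF28P was left out. log2(FPKM + 0.1) was fitted with limma 3.58.1 in R 4.3.3, with a mean-variance trend, on the 12982 genes that reached 1 FPKM in 3 or more libraries. p-values were adjusted by Benjamini-Hochberg over all of them, and a fold change on this scale understates that of low genes. Whole reads, recovered from the FPKM steps for 99.996% of values within 0.05 of a whole number with a gene length solved per gene, entered 1 alternative. Peaks were counted as overlapping when they shared 1 base on the same strand. Other steps used Python 3.11.15, pandas 2.3.3, NumPy 2.4.6 and matplotlib 3.10.9.

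The kinesin classes and gene lists were assembled from known functions, with earlier results of these data known, so lists are given by counts and medians without a test. Values per library are given for every called kinesin, KIF1C and the 5 with the highest mean FPKM, and from other lists among called genes the 2 that rose most and the 2 that fell most; SYT1, SNAP25, PRC1, INCENP, PLK1 and CCNB1 were named after their values were seen. On simulated data the fit called 178 of 195 genes changed by 1 on the log2 scale and 19 of 196 changed by 0.5, among 12749 and 12768 genes, where few genes changed and the adjusted threshold was therefore stricter than in these data. The simulated libraries all had the same spread, and none stood apart as shCtrl replicate 2 did, so these counts do not describe a fit with such a library. The alternatives were another pseudocount, no filter, a floor of 5 FPKM, TPM, median centring, quantile normalization, no trend, a replicate block, voom (limma) with the whole reads, a length and GC correction, each library left out, and for peaks the 50% with the highest fold enrichment or the lowest p-values and a reciprocal overlap of 50%. ac4C-seq of the study is not analysed here, and some items are not reported here.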

Additional observations from a re-analysis of the deposited data

How the results depend on the processing

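NAT10 and the kinesins KIF1A, KIF1C, KIF2A, KIF2C, KIF3B, KIF3C, KIF4A, KIF7, KIF20A, KIF20B and KIF24 kept their direction and call under every alternative in which they were tested. Leaving out each library in turn gave 8 to 15 kinesins higher (4 to 7 mitotic and 3 to 7 cargo) and 3 to 4 lower (1 to 2 cargo). The same fits called 13.7% to 25.4% of all genes higher and 13.6% to 25.6% lower. The lowest counts of higher kinesins came without a shNAT10 library, where 13.7% to 14.1% of all genes were higher. The length and GC correction gave 5 lower instead of 3, beside 26.2% of all genes. A mitotic kinesin was called lower, 1 instead of 0, under that correction and under the minimum FPKM of 5, and 2 cargo kinesins instead of 1 under these and under quantile normalization and median centring. Of all genes, 23.8% were lower with that minimum, 21.9% with quantile normalization and 21% with median centring. The correlations of deviations between same-numbered libraries were -0.04, 0.06 and 0.11, and those between other pairs ran from -0.12 to 0.06. With 3 libraries per group these values do not settle whether replicate numbers pair the libraries. With the replicate block 14 kinesins were higher and 3 lower, beside 19.4% and 20.1% of all genes, and only the call of KIF9 was lost. With no filter on expression KIF1B, KIF9, KIF13A and KIF14 lost their calls (adjusted p 0.0521 to 0.1 by limma). In that fit 7.55% of all genes were higher and 7.85% lower. KIF1B also lost its call with no mean-variance trend (adjusted p = 0.0595 by limma), and KIF9 with median centring (0.0507). Voom on the recovered reads called 2911 genes higher and 2759 lower. TPM moved the median of all genes to 0.10 and the calls to 25.8% higher and 16% lower. Reversed, all for kinesins that were not called, were KIF21A (-0.0058 with the length and GC correction), KIF22 (0.0547 with TPM, 0.0813 with the correction), KIF23 (0.0506 with TPM) and KIF5A (-0.0352 with the correction). Over the fits that left out 1 library, KIF21A ran from -0.0238 to 0.326, KIF22 from -0.125 to 0.0654, KIF27 from -0.0809 to 0.492 and KIF5A from -0.0472 to 0.0708, with the reversed end without shCtrl replicate 2, and KIFC2 from -0.0222, without shCtrl replicate 1, to 0.174. KIF5A also reversed without shNAT10 replicate 1 or 3. The cause was not tested. With the 50% of peaks of highest fold enrichment, 12 kinesins had a peak in shCtrl and 12 in shNAT10, with the 50% of lowest p-values 13 and 11, and with a reciprocal overlap of 50% 3 peaks of each list overlapped. With 3 libraries per group, a kinesin that was not called is not shown to be unchanged.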
